A study of Drosophila melanogaster with 20 samples.

Results

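The mitochondrial ribosome makes the few proteins that are encoded in mitochondrial DNA, which are core subunits of the respiratory chain. Its rRNAs are made inside the mitochondrion, whereas its proteins are encoded in the nucleus, translated in the cytoplasm and imported, so that each ribosome combines the products of both genomes. Many of its proteins descend from bacterial ribosomal proteins and others are found only in mitochondria. In *Drosophila* the genes of these proteins are named *mRpL* for the large subunit and *mRpS* for the small subunit. The members described here are all rows of the count table whose FlyBase symbol, matched from the gene identifier, begins with mRpL or mRpS. There were 72 such rows among 17809 rows for genes and transgenes, 47 named for the large subunit and 25 for the small subunit. Subunits below follow these names. By the names of their bacterial counterparts, 45 have a bacterial counterpart and 27 do not.

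The libraries were RNA-seq libraries of whole *Drosophila melanogaster* embryos, each from a pool of 6 embryos at stage 12 to 14, with 4 replicates in each of 5 genotypes. Ada2b is a subunit of Gcn5 acetyltransferase complexes, and its splice isoforms differ in the complex that they join. *Ada2b* null embryos (null) carried a pair of different *Ada2b* null alleles and no transgene. The other *Ada2b* embryos carried the same alleles with a single copy of a transgene driven by *Ada2b* genomic sequences. PA embryos expressed only Ada2b-PA, the isoform of the Chiffon-containing CHAT complex, and PB embryos only Ada2b-PB, the isoform of the SAGA and ADA complexes. PA+PB embryos carried both transgenes, and together with the *elav-Gal4>GFP* embryos (WT), which carried no *Ada2b* mutation, they served as controls, giving 8 control libraries. Embryos of all 5 genotypes were selected by hand for GFP driven by *elav-Gal4*, a pan-neural driver. The label of WT replicate 3 gives stage 12 to 15, and it was kept. The control embryos therefore differed from each other in alleles and transgenes, and null embryos may still hold maternal products.

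Library depth differed between genotypes and bears on every value below. Counts on genes ran from 1665636 in PB replicate 1 to 35678749 in WT replicate 1, and PA libraries held 2569525 to 10772137. PB replicates 2 and 3 held 5850673 and 4477281, and PB replicate 4 held 33363718. The 4 null libraries held 17874297 to 29013029 counts. The PA+PB libraries, at 4828612 to 13973822, overlapped PA and PB in depth. *Ada2b* itself was at 30.7 to 47.1 CPM (counts scaled to a common library size) in the null and at 106 to 368 CPM in the 16 other libraries, so that the levels of *Ada2b* followed the null labels. The factor of unwanted variation in the model, which was estimated from the differences between replicates, was lowest in the null (−0.25 to −0.24) and highest in PB replicate 1 (0.86) and PA replicate 2 (0.57). Among the controls it was higher in WT replicates 2 and 4 (−0.06 and −0.03) and in PA+PB replicate 3 (0.27) than in WT replicates 1 and 3 (−0.23 and −0.16). Of all 10904 genes tested, 2.57% to 3.88% had 0 counts in each null library, but 51.2% had none in PA replicate 2 and 57.0% in PB replicate 1.

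The mitochondrial ribosomal protein genes were expressed in all 5 genotypes. The filter on low counts left 71 of the 72 members. The exception was *mRpL53*, which had 0 counts in all 20 libraries. All 829 bases of its exons lie within *CG33155* on the same strand, and htseq-count discards a read that falls in more than 1 gene, so its level could not be read here. The other members that share exon bases with a gene on the same strand are *mRpL13* (with *CG10602*) and *mRpS14* (with *CG32533*), and 42 of the 72 members overlap a gene on the other strand. Counting with default parameters, as the study did, assigns reads by strand, but whether this setting matches the library kit was not tested. Of the 71 tested members, 11 had counts in every library. The other 60 had 0 counts in at least 1 library, at most in 6 of the 20. These zeros were uneven. No tested member was at 0 in any null or WT library or in PB replicate 4, whereas 43 of 71 (60.6%) were at 0 in PB replicate 1, 29 in PA replicate 2, 25 in PB replicate 3 and 10 in PA+PB replicate 3. A count of 0 allows 3 counts, which is 0.0841 CPM in the deepest library and 1.80 CPM in the shallowest. This covers counting error only.

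Per kilobase of exon, the members spanned a wide range of levels in WT embryos, with a median member at 22.3 CPM per kb. *mRpS7*, the counterpart of bacterial S7, which lies in the head of the small subunit and starts its assembly, had the highest median over all 20 libraries, 90.6 CPM per kb. In WT it stood at 133 CPM per kb, with a range of 107 to 194. *mRpL30* and *mRpS10*, counterparts of bacterial L30 and S10, followed over the 20 libraries at 68.1 and 67.8 CPM per kb. In WT the order was different. *mRpS10* stood at 82.9 CPM per kb (67.5 to 94.3) and *mRpL30* at 45.4 (29.4 to 51.3), and these WT ranges did not overlap. At the other end, *mRpL21* had 3.30 CPM per kb in WT (0.661 to 6.56) and *mRpS34* 4.17 (0.949 to 5.64), and their ranges overlapped each other. *mRpL21* is the counterpart of bacterial L21, and mRpS34 has no bacterial counterpart. The spread between replicates differed with genotype. The coefficient of variation of the median member was 18.9% in the null, 29.6% in WT, 46.0% in PA+PB, 77.3% in PA and 101% in PB.

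**Figure D1:**
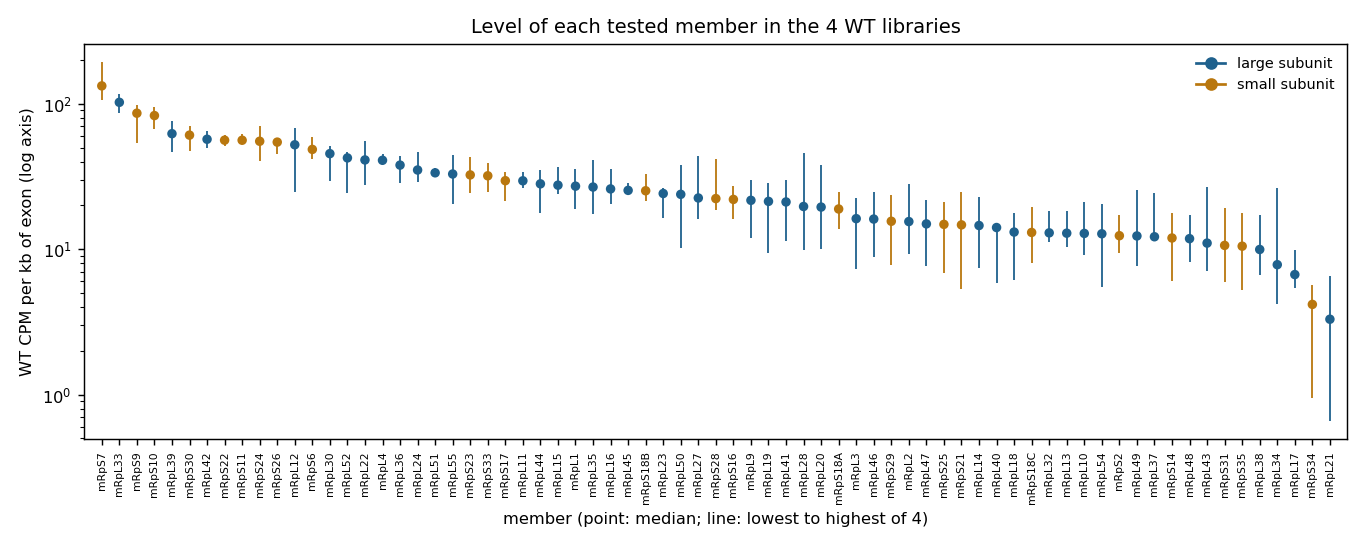
Level of each tested member in the 4 WT libraries, in CPM per kilobase of exon on a log axis, ordered by the median. Points are medians and lines run from the lowest to the highest library. mRpS7 stood at 133 CPM per kb and mRpL21 at 3.30, and most neighbours in the order overlapped.

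Summed over the 71 tested members, the RNA of mitochondrial ribosomal proteins was at a similar level in the null and in the controls. The null libraries summed to 2093, 2160, 2094 and 2244 CPM. The WT libraries summed to 2029, 1835, 1885 and 1572 CPM, and the PA+PB libraries to 2487, 2122, 2495 and 1790 CPM. The null libraries lay above all WT libraries and within the range of the PA+PB libraries. PA libraries summed to 1409, 1569, 2388 and 1902 CPM and PB libraries to 1276, 1717, 1155 and 1923 CPM. In both genotypes 2 libraries lay below every control library, replicates 1 and 2 in PA and 1 and 3 in PB, and the other 2 lay within the control range. As means, this was 2148 ± 71.6 CPM in the null, 1830 ± 191 in WT, 2223 ± 337 in PA+PB, 1817 ± 433 in PA and 1518 ± 362 in PB (SD, n = 4). These are whole embryos, so fewer cells with much mitochondrial ribosomal protein mRNA and less of that mRNA per cell cannot be told apart. By subunit, the null libraries summed to 1297 to 1397 CPM over the large subunit and to 789 to 847 CPM over the small subunit. WT libraries summed to 749 to 1142 CPM over the large and 783 to 980 CPM over the small subunit, and PA+PB libraries to 1006 to 1519 CPM and 785 to 1484 CPM. The null thus lay above WT over the large subunit and within PA+PB over both subunits.

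**Figure D2:**
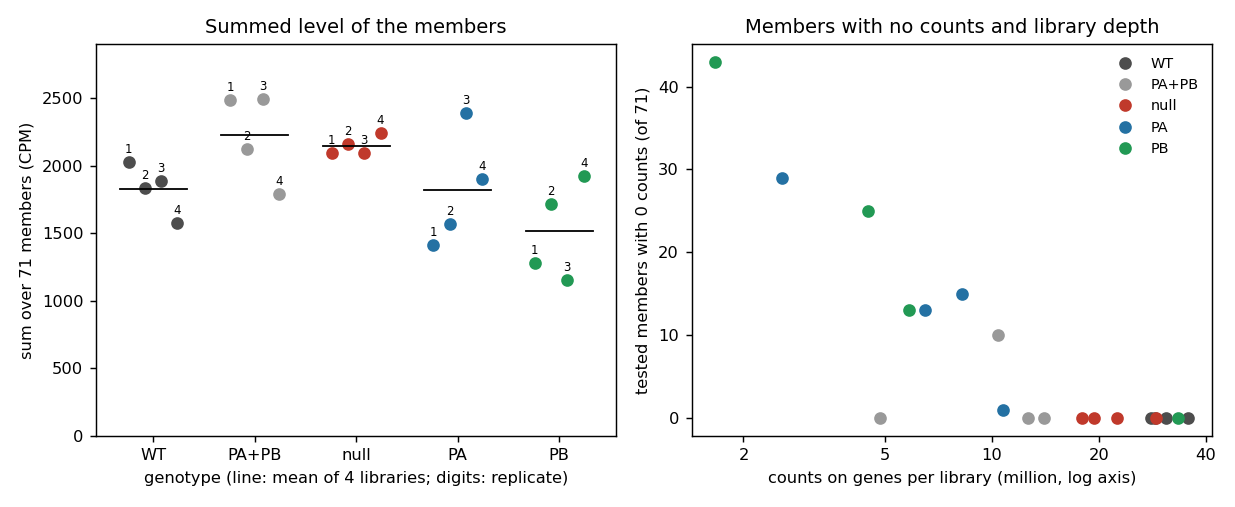
Left, sum of the CPM of the 71 tested members in each library, by genotype, with replicate numbers and the mean of 4 as a line. Right, number of tested members with 0 counts against the counts on genes per library on a log axis. The null libraries lie between 2093 and 2244 CPM, and the 43 members without counts belong to the shallowest library.

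To ask whether loss of Ada2b changes these genes, the null was compared with both controls by edgeR's quasi-likelihood test with Benjamini-Hochberg adjustment over all genes tested. The limits for a call were a false discovery rate (FDR) of 0.05 and a size of 0.5 on the log2 scale, and a call against both controls needed the same direction for WT and for PA+PB. No member was called in the null against both controls, where 2.7% of all genes tested were called. Against WT alone and against PA+PB alone, 0 of 71 members were called, with 4.59% and 3.38% of all genes called. At an unadjusted p under 0.05, 3 members passed against WT (2 lower and 1 higher, beside 14.2% of all genes), 4 against PA+PB (all lower, beside 17.1%) and 1 against both (beside 10.8%). The Wald test of DESeq2 called 1 member higher against both controls, *mRpL23* (1.11, FDR = 0.00861), beside 7.67% of all genes. The members' shares, at most 5.63%, were below those of all genes. The median member had a standard error (SE) of 1.08 on the log2 scale against WT and of 1.22 against PA+PB. Changes of that size, and larger ones, could therefore not be resolved for most single members, because a call needed a change well beyond its SE. The median log2 fold change over members was 0.06 against WT and −0.40 against PA+PB, and that over all genes −0.18 and −0.27. Without the factor of unwanted variation the members' medians were 0.48 and 0.25, and those of all genes 0.40 and 0.49, so the direction against PA+PB depended on the factor.

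**Figure D3:**
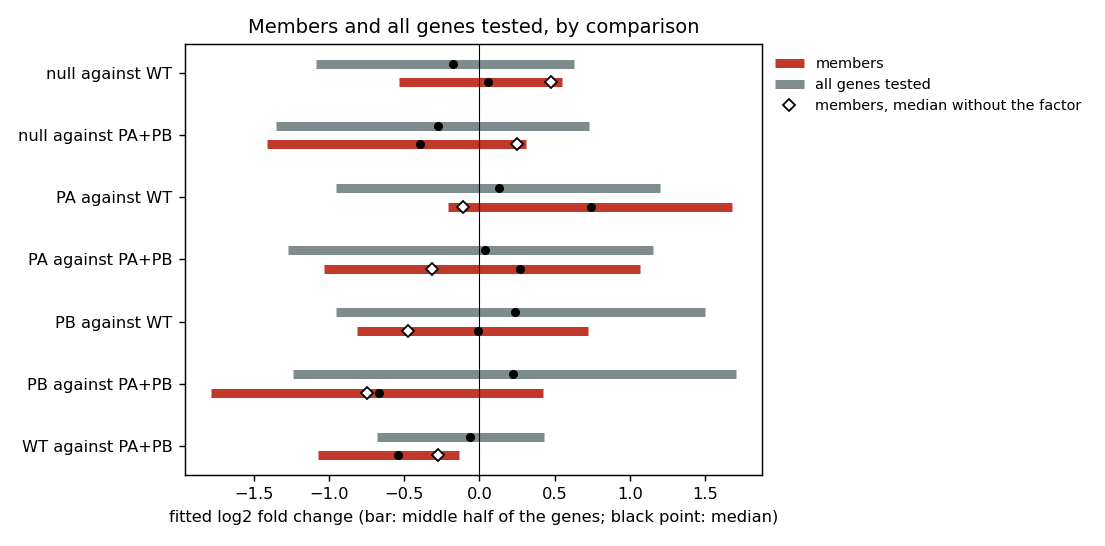
Fitted log2 fold changes in 7 comparisons for the 71 members and for all 10904 genes tested. Bars span the 25th to the 75th percentile, black points are medians, and open diamonds are the members' medians in a fit without the factor of unwanted variation. The members' median in the null against PA+PB moves from −0.40 to 0.25 without the factor.

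Below the summed level, single members lay on both sides of the controls. The 4 null libraries lay below all 8 control libraries for 9 of 71 members (12.7%), beside 14% of all genes, and above all 8 for 6 members (8.45%), beside 10.2% of all genes. Against the 4 WT libraries alone, the null lay below for 12 members (19.8% of all genes) and above for 20 members, which is 28.2% of the members beside 18.8% of all genes. The first 3 shares are near or below those of all genes, and the difference of the last from all genes was not tested. The counts against the 8 controls moved with the scaling of the libraries. With DESeq2 size factors 12 members lay below (19.1% of all genes) and 1, *mRpL12*, lay above (4.56%). With upper quartile factors 5 lay below (11.8%) and 10 above (13.9%). By TMM scaling, used for all CPM here, the 9 members below the 8 controls were *mRpL11*, *mRpL39*, *mRpL45*, *mRpS7*, *mRpS9*, *mRpS10*, *mRpS11*, *mRpS24* and *mRpS30*. The 6 members above were *mRpL12*, *mRpL22*, *mRpL23*, *mRpL40*, *mRpL46* and *mRpS35*. Under all 3 scalings *mRpL11*, *mRpL45*, *mRpS7*, *mRpS9* and *mRpS10* lay below and *mRpL12* above.

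*mRpS9* (FBgn0037529, chr3R:7889277-7902667, dm6) was the only member of the 71 whose null libraries lay outside the controls and whose unadjusted p was under 0.05 against both. It is the counterpart of bacterial S9, a protein of the head of the small subunit whose tail reaches the tRNA in the peptidyl site, and its exons share 325 bases with *ArgRS-m* on the other strand. The null libraries had 49.5, 54.7, 47.2 and 53.0 CPM. The WT libraries had 121, 128, 69.2 and 101 CPM, and the PA+PB libraries 93.7, 180, 220 and 116 CPM. The null libraries were close to each other, and all lay below the lowest control. The fitted log2 fold change was −1.03 ± 0.42 (SE) against WT, with an FDR of 0.234. Against PA+PB it was −1.56 ± 0.45 (FDR = 0.0609, edgeR). Neither passed the threshold. With DESeq2 size factors in the same test *mRpS9* was called lower against both controls, at a mean of −1.72 (FDR = 0.0282), and without the factor it was called against PA+PB alone (−1.58, FDR = 0.0488). The Wald test of DESeq2 called it against PA+PB (−1.56, FDR = 0.00197) and not against WT. *mRpS7* (FBgn0032236, chr2L:10386662-10387652) had 82.8, 65.8, 66.7 and 80.7 CPM in the null, 102, 178, 97.7 and 141 in WT and 90.03, 203, 374 and 102 in PA+PB. Its null libraries lay just below the lowest control, and its FDR was 0.632 against WT and 0.242 against PA+PB.

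By the mean of both log2 fold changes in the fit with the factor, *mRpL39* (FBgn0036462, chr3L:14997981-14999666) was lowest in the null at −2.43. It encodes a large subunit protein without a bacterial counterpart. It had 36.2, 41.3, 34.7 and 34.9 CPM in the null, 68.0, 86.0, 53.2 and 73.6 in WT and 72.9, 114.6, 87.8 and 47.2 in PA+PB. The null libraries again lay below every control. *mRpL33* followed at −2.02, with 17.9 to 25.5 CPM in the null and 22.1 to 66.8 in the controls, and here PA+PB replicate 4 lay inside the null range. *mRpS24*, whose product is the counterpart of bacterial S3, stood at −1.99, with 12.6 to 23.7 CPM in the null and 24.2 to 43.3 in the controls. It shares 332 of its exon bases with *TBC1d7* on the other strand. *mRpL13* stood at −1.71, but its null libraries (2.39 to 11.6 CPM) overlapped the controls (5.92 to 21.8 CPM). *mRpS6* stood at −1.60, with 14.9 to 19.04 CPM in the null and 18.03 to 66.1 CPM in the controls, which overlapped at PA+PB replicate 4. None of these passed the FDR threshold against either control by edgeR. Without the factor the means were −1.03 for *mRpL39*, −0.86 for *mRpL33*, −0.80 for *mRpS24*, −0.76 for *mRpL13* and −1.07 for *mRpS6*. That of *mRpS9* was −1.31, so the sizes and the ranking depended on the factor. By the Wald test of DESeq2, *mRpL39* (−3.04, FDR = 0.00342) and *mRpS6* (−1.95, FDR = 0.0286) were called lower against PA+PB alone.

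**Figure D4:**
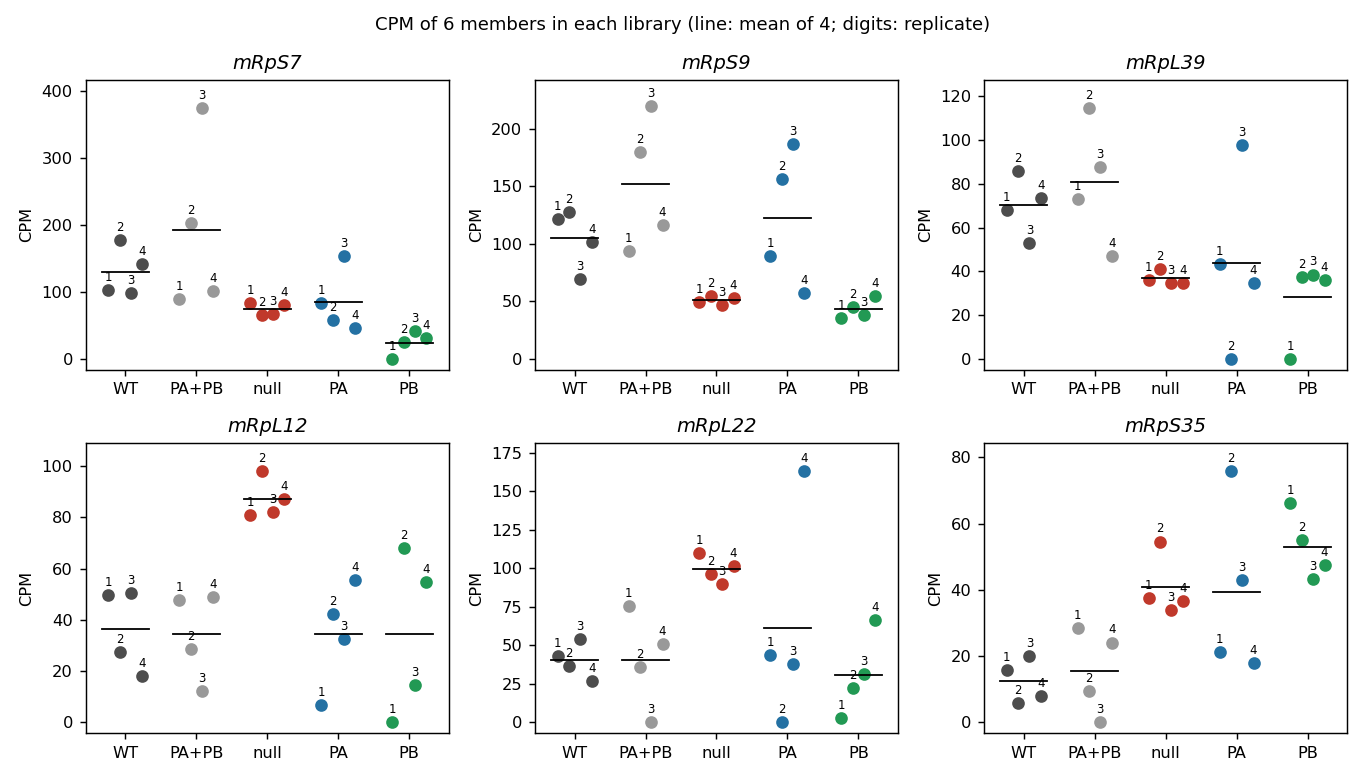
CPM of 6 members in each library, by genotype, with replicate numbers and the mean of 4 as a line. In the upper row (mRpS7, mRpS9, mRpL39) the null and PB libraries lie below the 8 control libraries. In the lower row (mRpL12, mRpL22, mRpS35) the null libraries lie above the 8 control libraries by TMM scaling, and with DESeq2 size factors mRpL12 alone does.

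At the other end of the fit with the factor, *mRpS35* (FBgn0035374, chr3L:2780899-2782105) was highest in the null at a mean log2 fold change of 1.54. It encodes a small subunit protein without a bacterial counterpart. Its null libraries had 37.5, 54.6, 34.0 and 36.7 CPM, WT had 15.9, 5.95, 20.1 and 8.07, and PA+PB had 28.5, 9.48, 0 and 24.1. All null libraries were above all controls, but within each control genotype the values differed more than 3-fold. *mRpS25* (1.29), *mRpS16* (1.22), *mRpL49* (1.20) and *mRpL48* (1.19) followed, and for each of these at least 1 control library reached the null range. For *mRpS16*, the counterpart of bacterial S16, the null (29.2 to 40.02 CPM) lay above WT (8.82 to 14.8 CPM) but not above PA+PB replicate 3 (32.0 CPM). Its unadjusted p of 0.0442 against WT became an FDR of 0.325 by edgeR, and DESeq2's Wald test called it against WT alone (1.63, FDR = 0.0471). In CPM, the null libraries also lay above all controls for *mRpL12* (FBgn0011787, chr3L:8956791-8957584), which encodes the stalk protein that recruits translation factors, and for *mRpL22* (FBgn0030786, chrX:16783933-16785092), whose bacterial counterpart lines the exit tunnel. *mRpL12* had 81.0, 97.9, 82.1 and 87.3 CPM in the null, 49.7, 27.4, 50.5 and 18.2 in WT and 47.9, 28.5, 12.3 and 49.0 in PA+PB. *mRpL22* had 110, 96.4, 89.8 and 102 CPM in the null, and its WT libraries had 27.0 to 54.0 CPM and its PA+PB libraries 0 to 75.8. Their fitted log2 fold changes, which allow for the factor, were 0.84 ± 0.84 and 0.66 ± 1.08 against WT. For *mRpL46* the fit and the CPM went in opposite directions. All null libraries (29.4 to 47.8 CPM) were above all controls (0 to 24.2 CPM), while the fitted log2 fold change against WT was −0.45 ± 0.92.

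Members also differed among libraries of 1 control genotype. In WT, 40 of 71 members (56.3%) had lower CPM in both replicates 2 and 4 than in both replicates 1 and 3, beside 28.2% of all genes, and 9 members (12.7%) had higher CPM, beside 15.2% of all genes. These libraries were set apart after their values of the factor were seen, and they also had fewer genes with counts, 10061 and 11451 against 12126 and 12049. Of the 40 members, 30 belong to the large and 10 to the small subunit, and of the 9 members 4 and 5. The 40 had a median level of 15.5 CPM per kb in WT and the 9 a median of 56.2. The part of genotype and of this difference between libraries in the null's values was not tested beyond the factor in the model.

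PB embryos, which lack the CHAT isoform, were then compared with both controls. No member was called, beside 0.752% of all genes. In single comparisons 0 members were called against WT (0.835% of all genes) and 2 against PA+PB, which is 2.82% of the members beside 6.59% of all genes. At an unadjusted p under 0.05, 2 members were lower against both controls (beside 17.3% of all genes in either direction), 3 passed against WT (22%) and 10 against PA+PB (29.9%). DESeq2's Wald test called *mRpS7* (−2.68, FDR = 0.0409) and *mRpS9* (−1.55, FDR = 0.0306) lower against both controls, beside 8.84% of all genes. These shares of members were below those of all genes. The median member had a log2 fold change of −0.01 against WT and −0.66 against PA+PB, where all genes had 0.24 and 0.22. Without the factor these medians were −0.47 and −0.75 for members and −0.16 and −0.05 for all genes. The control WT itself stood at a median of −0.54 against PA+PB over members and −0.06 over all genes, with 0 members called (0.0183% of all genes), 0 at an unadjusted p under 0.05 (3.65%) and 0 by DESeq2's Wald test (0.486%).

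The 2 members lower in PB against PA+PB were *mRpS7* and *mRpS9*. *mRpS9* had 35.4, 44.7, 38.1 and 54.9 CPM in PB, which is below every control library and overlaps the null. The fitted log2 fold change was −1.82 ± 0.43 against PA+PB (FDR = 0.0207) and −1.29 ± 0.45 against WT (FDR = 0.130, edgeR). *mRpS7* had 0, 25.2, 41.7 and 31.4 CPM in PB, which is below every control and also below every null library. Its log2 fold change was −3.15 ± 0.79 against PA+PB (FDR = 0.0265) and −2.20 ± 0.76 against WT (FDR = 0.130). Both calls were lost without PB replicate 2, without PA+PB replicate 2, without PA+PB replicate 3, which had the highest value of both genes, and in a fit of the compared genotypes alone. The log2 fold changes in these fits were −3.19, −3.19, −2.06 and −3.34 for *mRpS7* and −1.85, −1.73, −1.53 and −1.90 for *mRpS9*, so that *mRpS7* moved by more than 1.5 times without PA+PB replicate 3. That of *mRpS9* was also lost, at −1.16, when only genes with counts in every library were fitted. The null and PB did not differ at the threshold for either gene. The log2 fold change of null against PB was 0.26 ± 0.47 for *mRpS9* (FDR = 0.853) and 1.13 ± 0.81 for *mRpS7* (FDR = 0.566). In PA embryos, which have the CHAT isoform, *mRpS9* was at 89.6, 156, 187 and 57.1 CPM and *mRpS7* at 83.3, 57.9, 153 and 46.3 CPM. The PA libraries overlapped the controls for both genes. PA against PB gave 1.49 ± 0.42 for *mRpS9* (FDR = 0.138, edgeR) and 2.07 ± 0.78 for *mRpS7* (FDR = 0.163, edgeR), which did not pass the threshold. DESeq2's Wald test called both higher in PA than in PB, beside 13.4% of all genes. It gave 1.49 for *mRpS9* (FDR = 0.0030) and 2.08 for *mRpS7* (FDR = 0.0283).

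In CPM, the PB libraries lay below all 8 controls for 10 of 71 members (14.1%), beside 8.62% of all genes, and above them for 3 members (4.23%), beside 1.67%. A gene at 0 in any control library cannot lie below all controls. In PA+PB replicate 3, 14.1% of the members and 34.3% of all genes were at 0. Shares below the controls in the null, PA and PB are therefore not set beside a like background. Both the null and the PB libraries lay below the 8 controls for 6 members (8.45%), beside 4.93% of all genes. These were *mRpL39*, *mRpL45*, *mRpS7*, *mRpS9*, *mRpS11* and *mRpS24*. *mRpL45*, whose human counterpart helps to hold the ribosome at the inner membrane, had 21.03 to 24.4 CPM in the null, 0, 19.6, 0 and 18.2 in PB and 31.3 to 45.0 in the controls. *mRpS11* had 26.6 to 31.4 CPM in the null, 0, 13.2, 19.3 and 21.5 in PB and 31.5 to 93.7 in the controls. The 3 members above the controls in PB were *mRpL15*, *mRpS22* and *mRpS35*. *mRpS22*, which has no bacterial counterpart, had 107, 177, 111 and 107 CPM in PB. Its WT libraries had 68.2 to 81.6 CPM and its PA+PB libraries 56.5 to 85.6. Its log2 fold change was 0.86 ± 0.36 against PA+PB (FDR = 0.122) and 0.74 ± 0.38 against WT (FDR = 0.251) by edgeR, and DESeq2's Wald test called it against PA+PB alone (FDR = 0.00991). *mRpS22* and *mRpL15* were among the 11 members with counts in every library.

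By the mean of both log2 fold changes, the lowest members in PB were *mRpL34* (−3.92), *mRpL41* (−3.28) and *mRpL33* (−2.72), and the highest were *mRpL46* (2.20), *mRpS25* (1.99) and *mRpS35* (1.97). None was called by edgeR, and DESeq2's Wald test called *mRpL33* (FDR = 0.0263) and *mRpL41* (FDR = 0.0217) against PA+PB alone. *mRpL34* had 0 counts in PB replicates 1 to 3 and 0.918 CPM in replicate 4, and its controls were at 1.37 to 8.68 CPM. *mRpL41* had 0, 0, 0 and 6.10 CPM in PB, and 5.40 to 31.6 CPM in the controls. *mRpL33* had 0, 16.5, 0 and 5.77 CPM. These 3 members had at most 1 or 2 PB libraries with counts, and 7 of the 71 members had counts in PB replicate 4 alone among the PB libraries. *mRpS35* stood above all controls at 66.1, 55.1, 43.1 and 47.6 CPM. *mRpS25* reached 146 CPM in PB replicate 1 and 19.3 to 32.96 in the others, which overlapped PA+PB. For *mRpL46* the PB libraries had 0, 7.97, 17.9 and 15.9 CPM and overlapped both controls, so that its high fitted value was not visible in the CPM. It was −0.36 without the factor.

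PA embryos, which lack the SAGA and ADA isoform, gave no called member against both controls, beside 0.0917% of all genes, and none against WT (0.11%) or PA+PB (0.532%) alone. At an unadjusted p under 0.05, 7 members passed against WT (2 lower and 5 higher, beside 14.6% of all genes), 9 against PA+PB (6 lower and 3 higher, beside 20.5%) and 3 against both controls (11%). DESeq2's Wald test called *mRpL33*, *mRpL40* and *mRpS31* against both, beside 6.58% of all genes. The median log2 fold change over members was 0.74 against WT and 0.27 against PA+PB, where all genes had 0.13 and 0.04. Without the factor both medians were below 0, at −0.11 and −0.32, and so were those of all genes, at −0.44 and −0.39. The direction of the members' medians thus depended on the factor, while they stood above those of all genes in both fits. Genes at 0 in a control library could again not be counted as below, and in PA+PB replicate 3 these were a larger share of all genes than of members. The PA libraries lay below the 8 controls for 9 members (12.7%), beside 4.93% of all genes, and above them for 1 member (1.41%), beside 1.16%. That member was *mRpL18*, the counterpart of a bacterial protein that binds the 5S rRNA, with 31.8, 19.2, 20.2 and 41.4 CPM in PA and 0.0831 to 14.3 CPM in the controls.

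The 9 members below the controls in PA were *mRpL11*, *mRpL24*, *mRpL33*, *mRpL36*, *mRpL42*, *mRpL44*, *mRpS21*, *mRpS24* and *mRpS28*. Of these, *mRpL24*, *mRpL33*, *mRpL42* and *mRpS24* were also below the controls in PB. The share of all genes below the controls in both PA and PB was not computed. *mRpL24*, the counterpart of a bacterial protein that starts assembly of the large subunit, had 11.7, 0, 16.5 and 0 CPM in PA and 0, 5.80, 10.2 and 19.3 in PB. Its null libraries (24.3 to 47.7 CPM) overlapped the controls (25.5 to 42.1 CPM). *mRpL42*, which has no bacterial counterpart, had 17.7, 0.355, 21.4 and 0 CPM in PA, 24.2, 19.4, 22.9 and 9.71 in PB and 27.3 to 79.01 in the controls. The smallest unadjusted p against WT in PA was that of *mRpS31*, which has no bacterial counterpart. It had 41.4, 29.1, 60.1 and 60.1 CPM in PA. The WT libraries had 7.59 to 24.6 CPM and the PA+PB libraries 11.3 to 40.7. PA thus lay above WT and overlapped PA+PB. The fit gave 3.45 ± 0.96 on the log2 scale against WT, with an FDR of 0.151 by edgeR. It gave 2.40 ± 0.87 against PA+PB, with an FDR of 0.143, and this member was named after its values were seen. By DESeq2's Wald test it was called against both controls, at a mean of 2.71 (FDR = 0.00227).

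*mRpL33* (FBgn0040907, chrX:4321764-4322231) was the lowest member in PA, with a mean log2 fold change of −5.90. It had 0, 0, 2.23 and 0 CPM in PA, 40.8, 34.3, 29.9 and 37.2 in WT and 35.8, 32.0, 66.8 and 22.1 in PA+PB. Its counts were thus confined to PA replicate 3, with 23 counts, and every PA library lay below every control and every null library. The log2 fold change was −6.50 ± 1.60 against PA+PB (FDR = 0.0637) and −5.29 ± 1.57 against WT (FDR = 0.182, edgeR). It was called lower against both controls by DESeq2's Wald test, at a mean of −5.87 (FDR = 0.00188). *mRpS21* (−3.67) and *mRpS28* (−3.27), counterparts of bacterial S21 and S1, had a like profile. *mRpS21* had 0, 0, 1.84 and 0 CPM in PA and 2.54 to 11.7 in the controls, and *mRpS28* had 0, 0, 6.69 and 0.240 CPM in PA and 7.79 to 28.8 in the controls. The highest members in PA were *mRpL40* (3.58), *mRpL17* (3.26) and *mRpS14* (3.08). *mRpL40* had 10.98, 49.4, 20.3 and 67.4 CPM in PA against 4.15 to 18.3 in the controls, which overlapped at PA replicate 1. It was not called by edgeR, and DESeq2's Wald test called it against both controls at a mean of 3.44 (FDR = 0.000708). *mRpL17* (0 to 12.8 CPM) and *mRpS14* (0 to 20.7 CPM) did not exceed the controls (0.122 to 15.7 and 0 to 31.8 CPM), so their fitted values rest on the factor. *mRpS14* stood at −0.16 in the fit without it.

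The transgenic genotypes were also compared with the null and with each other. Of the 71 members, 0 were called in null against PA, where 2.14% of all genes were called. None were called in null against PB (0.138% of all genes) or in PA against PB (0.00917% of all genes, 1 gene). At an unadjusted p under 0.05, 4, 1 and 10 members passed, beside 17.9%, 13.5% and 21.4% of all genes. DESeq2's Wald test called 5, 1 and 8 members (7.04%, 1.41% and 11.3%), beside 13.8%, 4.1% and 13.4% of all genes. The median log2 fold changes over members were −0.62, 0.25 and 0.70, and those over all genes −0.48, −0.51 and 0.14. Without the factor they were 0.56, 0.85 and 0.07 over members and 0.62, 0.25 and −0.14 over all genes. The members' direction in null against PA thus depended on the factor. In the fit with the factor, 17 large-subunit members were below 0 in null against PB and 29 above. For the small subunit it was 11 below and 14 above, so this fit gave no common direction. Without the factor the members' median was further above 0.

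By subunit, the 25 small-subunit members had lower medians against PA+PB than the 46 tested large-subunit members in both the null and PB, and also in WT. The medians were −0.91 and −0.20 in the null, −0.99 and −0.38 in PB and −0.87 and −0.37 in WT. All 3 of these comparisons share the PA+PB libraries. These medians are from the fit with the factor. Over all members, the median of null against PA+PB was −0.40 in that fit and 0.25 without the factor. The direction of the null's values here therefore cannot be taken as independent of the factor. Against WT, the medians of small and large subunits were −0.03 and 0.11 in the null and −0.11 and 0.07 in PB. By origin, the 45 members with a bacterial counterpart and the 26 tested members without one had medians of 0.01 and 0.22 in the null against WT, and of −0.92 and −0.23 in PB against PA+PB. Both calls in PB, *mRpS7* and *mRpS9*, are small-subunit members with a bacterial counterpart.

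Across the 20 libraries the log2 CPM of a member correlated with the mean of the other members at a median Pearson's r of 0.62, with a range from −0.59 to 0.89. The points share library depth and the number of undetected genes, and the values are a description. *mRpS22* (−0.59), *mRpL15* (−0.53) and *mRpS30* (−0.32) went against the others. These genes had counts in every library, including those in which many other members had none. The mammalian counterpart of *mRpS30* is known to lie in the large subunit despite its name, and *mRpS30* is counted here with the small subunit. The genes of the whole table most alike to the mean of the members were *Adsl* (r = 0.94), *Ent1* (0.94), *lncRNA:CR44417* (0.94), *Rab39* (0.94) and *Pp1-87B* (0.93), where the median over all genes was 0.44.

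The templates of the mitochondrial ribosome were examined beside its proteins. They are the 13 mRNAs of mitochondrial DNA, of which 12 were tested. Several fell in PA and PB embryos. Against both controls 3 of 12 were lower in PA (*mt:CoI*, *mt:CoIII* and *mt:ND3*), beside 0.0917% of all genes called. In PB 6 of 12 were lower (*mt:ATPase6*, *mt:CoI*, *mt:CoIII*, *mt:ND1*, *mt:ND4* and *mt:ND5*), beside 0.752% of all genes. In the null 0 of 12 were called, beside 2.7% of all genes, and 0 passed at an unadjusted p under 0.05 (10.8%). DESeq2's Wald test called 8 in PA and 10 in PB, beside 6.58% and 8.84% of all genes. Their summed level was 12196, 11436, 10079 and 12342 CPM in the null, 12996, 20953, 11599 and 11781 in WT, and 9507, 12400, 22183 and 9533 in PA+PB. In PA it was 1546, 1786, 636 and 132 CPM, and in PB 171, 254, 380 and 557 CPM. Each PA and PB library lay below every null and control library. *mt:CoIII*, a core subunit of cytochrome c oxidase, had 4775 to 5662 CPM in the null, 3316 to 11077 in the controls, 12.5 to 593 in PA and 57.8 to 162 in PB. Its log2 fold change was −5.76 ± 0.74 for PB against PA+PB (FDR = 0.000334) and −4.03 ± 0.70 for PA against PA+PB (FDR = 0.0125, edgeR). The median log2 fold change of the 12 mRNAs against both controls was −4.14 in PA, −4.89 in PB and −0.07 in the null. With 1 library left out, 0 to 8 were called in PA and 5 to 9 in PB, and the share of all genes was not computed for these fits. PB replicate 4 was as deep as the WT libraries and had no tested member at 0. At 557 CPM it was the highest PB library, below every null and control library. Its share of the deposited counts (summary values included) that fell on genes, 27.3%, was within the range of the controls (10.4% to 32.2%) and above the null (14.7% to 24.5%). That share was below every control in the other PB libraries (2.53% to 5.96%) and in PA (2.39% to 8.89%). In those libraries genotype and this share cannot be told apart, and their parts in the low values were not tested.

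**Figure D5:**
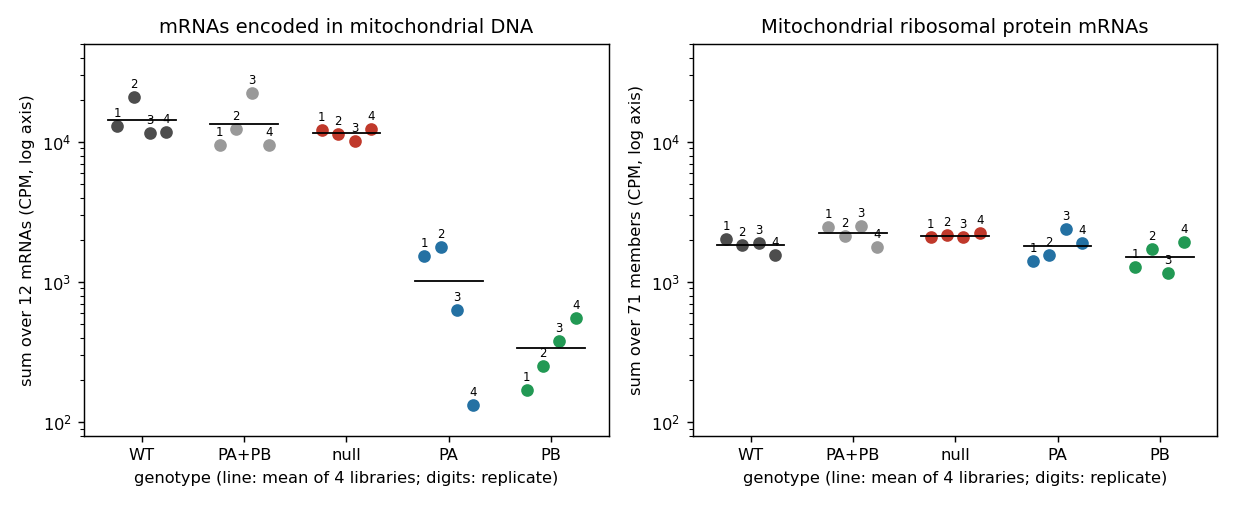
Summed CPM of the 12 tested mRNAs of mitochondrial DNA (left) and of the 71 tested mitochondrial ribosomal protein genes (right) in each library, on the same log axis, by genotype, with replicate numbers and the mean of 4 as a line. PA and PB libraries reach at most 1786 CPM on the left, where no null or control library is below 9507, whereas on the right all genotypes lie between 1155 and 2495.

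The rRNAs of the mitochondrial ribosome were kept out of the tests with the other rRNAs, and their counts depend on ribodepletion. The large rRNA, *mt:lrRNA*, had a median of 3455 CPM in the null, 1307 in WT, 1934 in PA+PB, 449 in PA and 74.99 in PB. The small rRNA, *mt:srRNA*, had medians of 454, 298, 541, 134 and 17.3 CPM. *tko* and *bonsai*, which encode proteins of the small subunit under other names, were not called in any genotype against both controls. Neither passed at an unadjusted p under 0.05 against both controls. In single comparisons 1 of the 2 passed in PA against WT (beside 14.6% of all genes) and 1 in PA against PB (beside 21.4%). Of the factors of mitochondrial translation and gene expression, 34 of 36 were tested and 0 were called in the null, PA or PB against both controls. At an unadjusted p under 0.05, 0, 1 and 2 passed, beside 10.8%, 11% and 17.3% of all genes. Of the nuclear genes of the respiratory chain, 63 of 80 were tested, and 1 was lower in the null (1.59%, beside 2.7% of all genes called). None was called in PA or PB. At an unadjusted p under 0.05, 8 passed in PA (12.7%, beside 11% of all genes) and 13 in PB (20.6%, beside 17.3%). These shares are near those of all genes. Of the cytoplasmic ribosomal protein genes, 89 of 93 were tested, and in PB 7 were lower and 2 higher than in both controls (10.1%, beside 0.752% of all genes). The median log2 fold changes of PB against both controls were 0.11 for the translation factors, 0.21 for the respiratory chain genes, −0.58 for the cytoplasmic ribosomal proteins and −0.45 for the members, beside 0.24 for all genes.

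Markers of the tissues in these embryos also differed between libraries. Summed over the muscle markers (*Mef2*, *Mhc*, *Act57B*, *wupA* and *Tm2*) the null libraries had 4058 to 5825 CPM, WT 701 to 12837, PA+PB 611 to 4862, PA 436 to 1828 and PB 2018 to 18595. Summed neuronal markers (*elav*, *nSyb*, *Syt1*, *brp* and *para*) were at 717 to 933 CPM in the null, 280 to 773 in WT, 101 to 746 in PA+PB, 238 to 716 in PA and 569 to 1485 in PB. Summed glial markers were at 287 to 334 CPM in the null, above the 8 controls (30.04 to 246 CPM), and at 80.6 to 216 CPM in PA and 148 to 366 in PB. Hemocyte markers were at 1012 to 13705 CPM in PB, 1139 to 1760 in the null, 389 to 1021 in PA, 252 to 3587 in PA+PB and 178 to 6084 in WT. Markers of late cuticle, which forms at the end of embryogenesis, ran from 0.0715 to 932 CPM in WT alone, and were at 13.5 to 64.8 CPM in the null, 3.82 to 54.3 in PA+PB, 0 to 14.8 in PA and 1.64 to 562 in PB. *elav* was detected in all 20 libraries. The part of tissue or stage composition in the members' values was not tested.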

How the data were processed

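RNA-seq libraries were made from 20 pools of 6 embryos (Ovation RNA-seq kit with removal of rRNA). Per gene, the deposited table holds unnormalized read counts, which the authors made by trimming with Trimmomatic, mapping with HISAT2 to dm6 and counting with htseq-count (0.11.1), with Ensembl release 99. The authors' normalization with RUVSeq came later and is not part of the counts. Symbols, exon lengths and overlaps were taken from Ensembl release 115 on the same assembly, and 17710 of 17807 gene identifiers matched. The header holds 1 empty field more than the data lines, so names were assigned to columns in order. Counting used default parameters, which assign reads by strand. Whether this setting matches the library kit was not tested.

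In R (4.3.3), 138 rRNA genes, 2 transgenes and 5 summary values were removed, and genes were filtered with edgeR (4.0.16) filterByExpr, which left 10904. Counts were normalized by TMM. All 20 libraries were fitted together with genotype and 1 factor of unwanted variation, estimated from replicates after the scheme of RUVs, and tested by quasi-likelihood F tests with Benjamini-Hochberg adjustment over all genes tested. The limit on fold change of the study's methods was read as 0.5 on the log2 scale. SEs were derived as the size of the log2 fold change over the square root of F. CPM are counts over TMM-scaled library sizes, and levels between genes were compared per kilobase of exon. Each replicate was a separate pool, and p-values measure the spread between pools that is left after the factor. This spread was estimated once over all 5 genotypes, although the coefficient of variation of the median member ran from 18.9% in the null to 101% in PB. DESeq2 (1.42.0) gave size factors and a Wald test as alternatives.

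Named members were those called, the 5 lowest and 5 highest by the mean log2 fold change against both controls in the null, 3 each in PA and PB, those outside all controls in the null with an unadjusted p under 0.05 against both, the 3 highest and 3 lowest levels and those failing the filter. *mRpS7* and *mRpS9* in PB, the members outside the range of the controls and the members that differ within WT were named after their values were seen. The members and the gene lists were chosen with earlier results of these data known. Alternatives changed the normalization, filter, number of factors, test, thresholds, controls and libraries in the fit. No sequence is shown.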

Additional observations from a re-analysis of the deposited data

Results flagged for a closer look

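Single libraries stood far from the other 3 of their genotype for 20 of 125 combinations of a named member (or the members' sum) and a genotype. The rule's chance rate of about 1 in 20 cannot be set against this count. Several of these combinations have 3 libraries at 0, where a flag is certain, and most members were named for their extreme values. In the null these were the highest values of *mRpS35* (54.6 CPM) and *mRpL41* (25.5 CPM). In PA the highest library stood apart for *mRpL33* (2.23 CPM), *mRpL34* (2.81 CPM), *mRpL46* (2.81 CPM), *mRpS21* (1.84 CPM) and *mRpS28* (6.69 CPM), each time PA replicate 3, and for *mRpL13* (54.1 CPM, PA replicate 4) and *mRpL49* (19.6 CPM, PA replicate 2). In PB the highest library stood apart for *mRpL34* (0.918 CPM), *mRpL41* (6.10 CPM), *mRpS21* (4.82 CPM), *mRpL17* (6.95 CPM), *mRpS14* (21.4 CPM) and *mRpL21* (16.9 CPM), each time PB replicate 4, and for *mRpS25* (146 CPM) PB replicate 1. *mRpL39* was at 0 CPM in PB replicate 1 and at 36.3 to 38.6 CPM in the others. In the controls, *mRpL34* was lowest in PA+PB replicate 4 (1.80 CPM), *mRpL40* was lowest in WT replicate 4 (4.22 CPM) and *mRpS28* was highest in WT replicate 2 (28.8 CPM). PA replicate 3 and PB replicate 4 were the deepest libraries of their genotypes.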

How the results depend on the processing

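The count of members called stayed at 0 under most alternatives. Among the alternatives, the share of all genes called was computed for DESeq2's Wald test only. The other counts below therefore have no background beside them. With DESeq2 size factors 1 member, *mRpS9*, was called in null against both controls and in null against PA. With 3 factors 1 was called in PA against both controls and 1 in PA against PB. DESeq2's Wald test called 1, 3 and 2 members in the null, PA and PB against both controls, 5 in null against PA, 1 in null against PB and 8 in PA against PB. In fits of the compared genotypes alone 2 were called in null against PA. Against the 8 controls pooled 1 was called in PA and 2 in PB. Without PA replicate 2 and PB replicate 1 together, chosen after the data were seen, 1 was called in PB against both controls and 1 in null against PA. With 1 library left out, 0 to 6 were called in PB against both controls (6 without PB replicate 4 and 1 without PB replicate 1), 0 to 3 in null against PB (3 without PB replicate 4), 0 to 2 in PA against PB (2 without PB replicate 4) and 0 to 2 in null against PA (2 without PA replicate 3). It was 0 in the other comparisons. The members' median ranged over these fits from −0.04 to 0.10 in null against WT, from −0.65 to −0.16 in null against PA+PB, from 0.04 to 0.60 in PA and from −0.81 to −0.16 in PB against both controls. With 0 factors it was −0.17 in PA and −0.61 in PB. Single members changed sign in 7 cases. These were *mRpS14* in PA (−0.16) and *mRpL46* in PB (−0.36) with 0 factors, *mRpL46* in PB without PB replicate 4 (−0.15, the lowest of a range that reaches 3.22 without WT replicate 1), *mRpS25* in the null (−0.14) and *mRpS21* in PA (0.72) with 3 factors, and *mRpS35* (−0.0291) and *mRpL48* (−0.20) in the null in fits of the compared genotypes alone. Except where a fit has fewer libraries by construction, the cause was not tested. With upper quartile factors the null lay below the 8 controls for 5 members and above for 10, and with DESeq2 size factors above for 1.

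Replicates with the same number came from separate pools. Of 40 same-numbered pairs, 7 had deviations correlated above 0.1 (range −0.46 to 0.48), and 4 of 20 libraries correlated best with their own number. With the replicate block 0 members were called in the 7 main comparisons, as without it, *mRpS7* (−3.12) and *mRpS9* (−1.75) were still called in PB against PA+PB, and 1 mRNA of mitochondrial DNA was lower in PA. Depth limits PA replicate 2 and PB replicate 1 most, where 29 and 43 members had no counts.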
